A study of Mus musculus with 4 samples.

Results

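The transcripts described here encode 7 acute-phase proteins, Saa1, Saa3, Lcn2, Serpina3n, Hp, Orm1 and Lbp, as measured in mouse aorta. Members were taken as every probe set whose only gene symbol is one of these names or an older alias of one. 6 of the 7 genes had a probe set under their own symbol, 7 probe sets in all. No probe set carried Saa1 alone. 2 further probe sets carry the symbol Saa2, and Saa1 and Saa2 are each recorded as an older name of the other, so these 2 entered through the alias and are called Saa2 below. This made 9 of the 12422 probe sets that are not controls, and 6 of the 8251 genes with a probe set of their own. The genes were chosen with the comparison of rosiglitazone against vehicle known, so their differences in that comparison are given as a description, with no test.

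RNA abundance was measured on 4 Affymetrix arrays. The RNA was pooled from aortas of C57BL/6J mice, all adult and male. 2 arrays held RNA of mice given rosiglitazone, an agonist of the nuclear receptor PPAR gamma, at 25 mg/kg per day for 21 days, and 2 held RNA of mice given vehicle for 21 days. The rosiglitazone arrays are replicates 1 and 2 and the vehicle arrays replicates 3 and 4. The labels give neither the number of mice in a pool nor whether each array had a pool of its own, so the spread between arrays may be technical.

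Acute-phase proteins are plasma proteins whose synthesis changes within hours of infection or injury. Hepatocytes make most of them, under the control of interleukin 1 and interleukin 6 acting through NF-κB, C/EBP factors and STAT3. Several are also made outside the liver, by adipocytes, macrophages, neutrophils, endothelial cells and smooth muscle cells. In mice Saa3 is known as a serum amyloid A made largely outside the liver, while Saa1 and Saa2 are the main circulating forms made by hepatocytes.

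The bases upstream of the start sites are shown because these genes share regulators in the textbook account of the response. RefSeq windows of the GRCm38.p6 build were held for 5 of the 8 genes concerned, Saa2 included, and the 250 bases before each listed start are printed 5′ to 3′ on the gene's strand. Capitals mark TTGCNNAA on either strand, a form of the C/EBP recognition sequence.
Saa3, chr7:46715677-46715926, minus strand: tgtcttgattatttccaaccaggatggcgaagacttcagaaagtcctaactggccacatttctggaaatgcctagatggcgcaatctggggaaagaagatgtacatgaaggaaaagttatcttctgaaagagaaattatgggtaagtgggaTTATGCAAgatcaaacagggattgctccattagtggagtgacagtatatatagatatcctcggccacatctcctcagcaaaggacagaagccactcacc
Lcn2, chr2:32387740-32387989, minus strand: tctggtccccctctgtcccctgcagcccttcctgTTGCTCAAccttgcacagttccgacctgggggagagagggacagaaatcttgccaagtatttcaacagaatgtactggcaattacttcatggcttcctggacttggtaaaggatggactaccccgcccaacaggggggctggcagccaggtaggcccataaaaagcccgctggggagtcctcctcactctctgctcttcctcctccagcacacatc
Serpina3n, chr12:104406458-104406707, plus strand: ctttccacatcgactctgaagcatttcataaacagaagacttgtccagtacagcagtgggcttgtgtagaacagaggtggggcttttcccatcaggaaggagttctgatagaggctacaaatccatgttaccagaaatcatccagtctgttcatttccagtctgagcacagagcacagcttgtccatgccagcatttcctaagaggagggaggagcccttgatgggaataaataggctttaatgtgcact
Saa1, chr7:46742981-46743230, minus strand: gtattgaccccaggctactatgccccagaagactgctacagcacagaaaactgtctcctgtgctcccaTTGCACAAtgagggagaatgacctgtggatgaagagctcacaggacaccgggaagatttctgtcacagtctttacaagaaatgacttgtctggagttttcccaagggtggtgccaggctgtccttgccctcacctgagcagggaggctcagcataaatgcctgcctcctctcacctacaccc
Saa2, chr7:46751583-46751832, plus strand: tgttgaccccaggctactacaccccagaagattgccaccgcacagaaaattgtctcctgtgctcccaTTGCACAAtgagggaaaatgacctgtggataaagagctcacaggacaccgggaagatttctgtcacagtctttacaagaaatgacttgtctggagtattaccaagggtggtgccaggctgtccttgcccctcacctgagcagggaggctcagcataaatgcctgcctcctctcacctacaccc
The C/EBP form was found in 4 of these 5 windows, 99 bases before the start of Saa3, 216 before that of Lcn2, 182 before that of Saa1 and 183 before that of Saa2. Of all 32851 windows of the same length, 9.56% held it. The Serpina3n window had no match to it.

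The Saa1 and Saa2 windows were alike at 238 of 251 aligned positions, or 94.8%, whereas Saa3 matched Saa1 at 52.2%. An NF-κB form, GGANTTTCC, was in 0 of 5 windows and in 1.07% of all. The STAT form TTCNNNGAA was in 0 of 5 and 7.02% of all. Its variant TTNCNGGAA was in the Saa3 window alone, 192 bases before the start, and in 3.76% of all. TATAAA was in 0 of 5 and 12.4% of all. AGGTCA, the half-site bound by PPAR and many other nuclear receptors, was in the windows of Saa1 and Saa2 and in 14.0% of all. These Saa1 and Saa2 matches, like those of the C/EBP form, lie in near-identical sequence and do not count as separate. All forms were searched on both strands. The NF-κB and AGGTCA forms replaced longer ones after a first search had been seen. In that search a looser NF-κB form matched all of these windows but one, and a large share of all windows, while a stricter NF-κB form and a longer PPAR form matched none of these windows. A match is a stretch of letters and not a shown binding site.

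The members did not move as a block. Saa3 and 1 of the 2 probe sets of Lcn2 were bright on both vehicle arrays and dim on both rosiglitazone arrays. Serpina3n was lower by 5.06-fold with rosiglitazone. Orm1 and Hp were lower by 1.61-fold and 1.54-fold, and Lbp had overlapping groups. In bulk RNA, fewer cells of a type and less RNA per cell cannot be told apart, and the measurements are of transcripts, not of the proteins.

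Of the 9 probe sets, 8 passed the filter on dim signals described under processing. Saa3, the first Lcn2 probe set and 103465_f_at of Saa2 had rosiglitazone means under the filter and passed it through their vehicle arrays. With vehicle arrays as dim as their rosiglitazone arrays, they would not have been retained. Of the 8, 3 lay among the probe sets called lower at an adjusted p of 0.05 by limma, a rate of 0.322% over all 7134 tested, which is given for reference only since the members were chosen on this contrast. They were Saa3, the first Lcn2 probe set and Serpina3n. The call of Serpina3n was lost with the floor at the 10th percentile, with arrays centred on their medians, with quantile normalization and without the intensity trend. With the filter at the 60th percentile the first Lcn2 probe set was removed, so it was not tested there. With no filter all 3 calls were lost. Both rosiglitazone arrays lay below both vehicle arrays in 7 of the 8, where 21.8% of all tested probe sets did. A log2 difference below 0 was seen in 8 of the 8 and in 51.9% of all tested, whose median was -0.02. The probe set that the filter removed, 100333_at of Saa2, was above 0, at 0.49. These shares too are given for reference only, since the choice of members and the filter both bear on them.

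**Figure D1:**
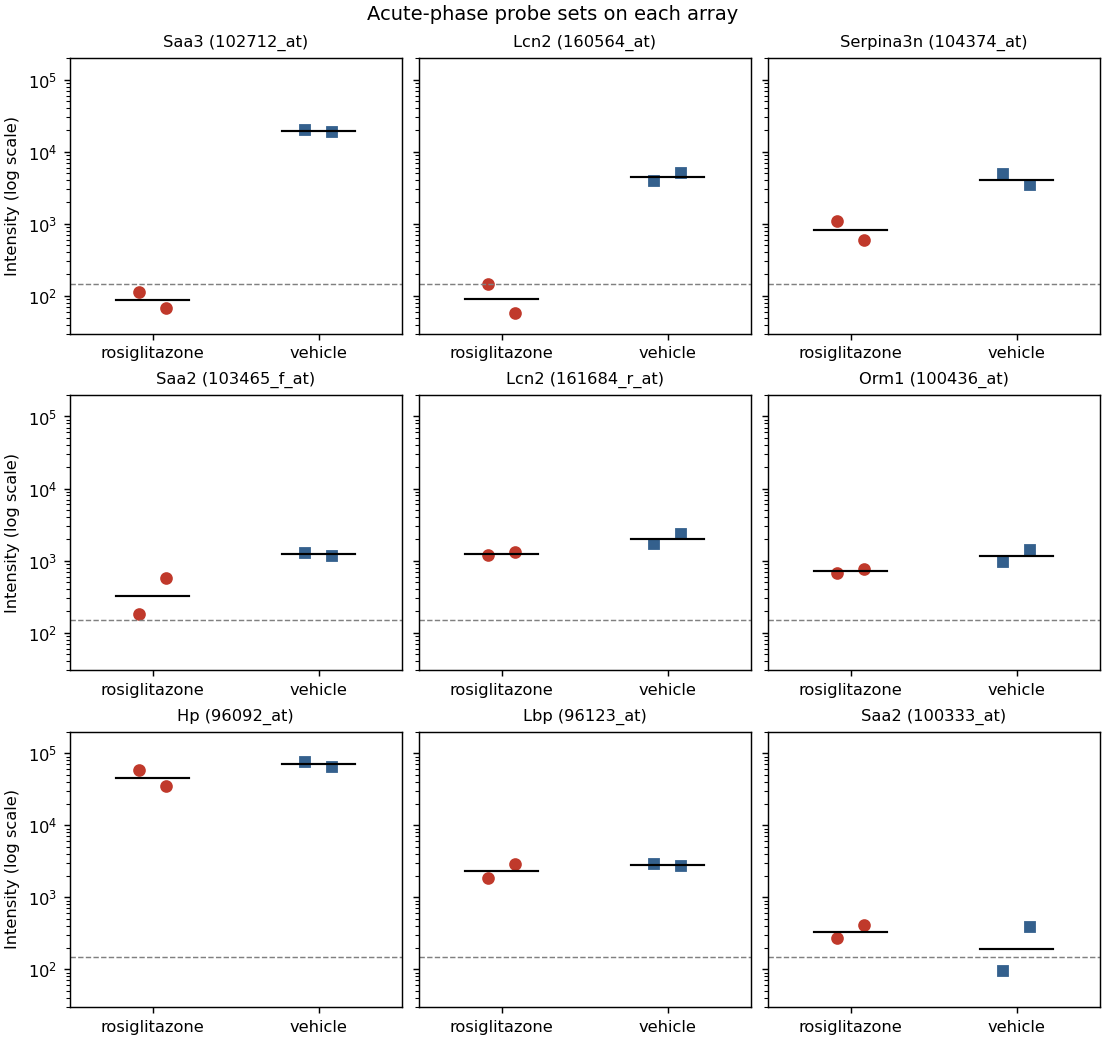
Intensity on a log axis for each of the 9 probe sets, with rosiglitazone arrays as red circles, vehicle arrays as blue squares, black lines for the geometric mean of each pair and a dashed line at the floor of 148. Saa3 and Lcn2 (160564_at) lie under the floor on both rosiglitazone arrays, while Lbp and Saa2 (100333_at) overlap between the groups.

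Saa3, a serum amyloid A that associates with lipoproteins and is made by macrophages and adipocytes, had intensities of 113 and 68 on the rosiglitazone arrays, against 20337 and 18573 on the vehicle arrays. The vehicle arrays were close to each other, 1.09-fold apart, and the rosiglitazone arrays both lay under the floor of 148. Intensities under this floor, the 20th percentile of all values, were set to it, so the difference is a bound. With rosiglitazone Saa3 was at least 131-fold lower, a log2 difference of -7.04. The 4 pairs of 1 rosiglitazone and 1 vehicle array gave at least 125-fold to at least 137-fold.

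The other serum amyloid genes lie in a cluster with Saa3 on chromosome 7. Of the 2 Saa2 probe sets, 103465_f_at had 180 and 574 with rosiglitazone, against 1288 and 1159 with vehicle, 3.80-fold lower (log2 difference -1.93). Its groups did not overlap, but the rosiglitazone arrays differed 3.19-fold from each other, more than the 2.02-fold gap between the nearest arrays of the groups. The suffix f marks a probe set that the maker designed against a family of similar sequences, so its signal cannot be tied to Saa2 alone. The second, 100333_at, had 268 and 416 with rosiglitazone, against 94 and 383 with vehicle. These groups overlapped, the mean was under the filter, and the log2 difference of 0.49 ran the other way.

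Saa4, a constitutive serum amyloid that rises little in inflammation, is not a member and was under the filter, with 67 and 453 against 983 and 375. The pseudogene Saa-ps had 70 and 73 with rosiglitazone, against 89 and 509 with vehicle. Both are named as neighbours of the members, after their values were seen. Neither had both groups clear of the floor of 148, and neither was tested.

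Lcn2, lipocalin 2, binds bacterial siderophores and so withholds iron, and is made by neutrophils, adipocytes and inflamed epithelia. Its probe set 160564_at had 145 and 57 with rosiglitazone, against 3982 and 5054 with vehicle. Both rosiglitazone arrays lay under the floor, and the vehicle arrays were 1.27-fold apart. Lcn2 was thus at least 30.3-fold lower on this probe set (log2 difference -4.92), from at least 26.9-fold to at least 34.1-fold over the 4 pairs of arrays.

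The second Lcn2 probe set, 161684_r_at, had 1175 and 1332 with rosiglitazone, against 1715 and 2370 with vehicle. It was 1.61-fold lower with rosiglitazone (log2 difference -0.69). The groups did not overlap, but the gap between their nearest arrays, 1.29-fold, was under the 1.38-fold between the vehicle arrays. The probe sets of this gene therefore disagree on the size of the difference, though not on its sign, and since the first gives a bound that moves with the floor, the gap between them has no fixed size. The suffix r marks a probe set for which the maker's selection rules could not all be met. The ratio of 3′ to 5′ signal for actin, a measure of RNA integrity, was 7.74 and 9.62 with rosiglitazone, against 8.88 and 11.9 with vehicle. For Gapdh the rosiglitazone arrays had ratios of 8.79 and 10.8, against 11.1 on both vehicle arrays, so this ratio did not overlap between the groups while that of actin did. These ratios were at least 7.74 on every array. Their part in the disagreement, or in the values of any other probe set, was not tested.

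**Figure D2:**
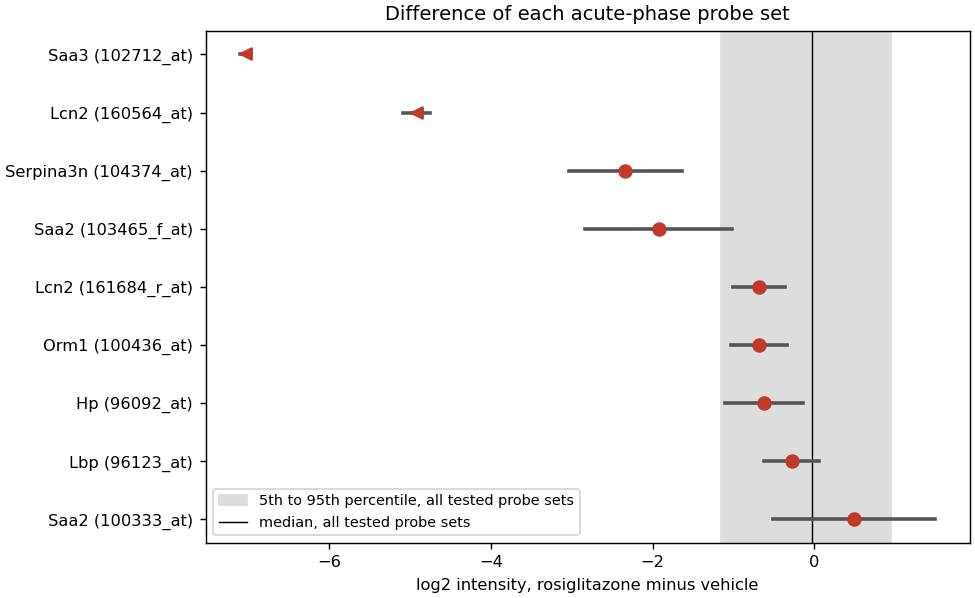
Log2 intensity of rosiglitazone minus vehicle for each probe set (red), with grey bars from the smallest to the largest of the 4 array pairs, left-pointing triangles for bounds set by the floor, and a shaded band for the 5th to 95th percentile of all 7134 tested probe sets. Saa3 and the first Lcn2 probe set lie far left of the band, Serpina3n and 103465_f_at lie left of it with wider bars, and the others lie inside it.

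Serpina3n is a secreted serine protease inhibitor, the mouse counterpart of human alpha-1-antichymotrypsin, with granzyme B and leukocyte elastase among its targets. It had 1100 and 601 with rosiglitazone, against 4928 and 3434 with vehicle. All 4 arrays were above the floor and the groups did not overlap. The mean of its log2 intensity was 9.67 ± 0.62 on rosiglitazone arrays and 12.01 ± 0.37 on vehicle arrays (SD, n = 2 each), a difference of -2.34. The smallest gap between arrays of different groups was 3.12-fold, above the 1.83-fold between the rosiglitazone arrays and the 1.44-fold between the vehicle arrays.

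Hp, haptoglobin, binds free haemoglobin in plasma and is made by adipocytes as well as liver. Its probe set was bright on every array, at 59133 and 34873 with rosiglitazone, against 74725 and 65087 with vehicle. Hp was 1.54-fold lower with rosiglitazone. The mean of its log2 intensity was 15.47 ± 0.54 on rosiglitazone arrays and 16.09 ± 0.14 on vehicle arrays (SD, n = 2 each). The groups did not overlap, but the nearest arrays were 1.10-fold apart while the rosiglitazone arrays differed 1.70-fold from each other. The difference was thus not larger than the spread between replicates.

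Orm1, orosomucoid 1 or alpha-1-acid glycoprotein, carries basic and lipophilic drugs in plasma, as known from humans. It had 678 and 767 with rosiglitazone, against 967 and 1387 with vehicle, 1.61-fold lower (log2 difference -0.68). The nearest arrays of the groups were 1.26-fold apart and the vehicle arrays 1.43-fold. A probe set assigned to both Orm1 and Orm2 is no member and had 11161 and 9519 with rosiglitazone, against 13205 and 11258 with vehicle, a log2 difference of -0.24. Orm2, the neighbouring paralogue on chromosome 4, had 138 and 288 against 1258 and 680 (log2 difference -2.16, adjusted p = 0.365 in limma). Orm3 had 1051 and 824 with rosiglitazone, against 1240 and 155 with vehicle, and its groups overlapped. The orosomucoid probe sets thus went from -2.16 to 1.09, and near-identical copies may share signal. The shared probe set and Orm3 are named after their values were seen.

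Lbp, the lipopolysaccharide-binding protein that passes bacterial endotoxin to Cd14, had 1860 and 2876 with rosiglitazone, against 2875 and 2752 with vehicle. Rosiglitazone replicate 2 lay above both vehicle arrays. The log2 difference was -0.28, and the rosiglitazone arrays differed 1.55-fold from each other.

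Among themselves, the members' profiles over the 4 arrays fell into different shapes. Each profile was centred on its own mean, and likeness was taken as the Euclidean distance between centred log2 profiles, in log2 units. Orm1 and the second Lcn2 probe set were the closest pair, at a distance of 0.038, with both at their highest on vehicle replicate 4. Outside the members, the nearest to Saa3 were Il1b, the cytokine interleukin 1 beta, at 0.25, the neutrophil-attracting chemokine Cxcl2 at 0.47, and S100a8, a neutrophil calcium-binding protein, at 1.31. The nearest to the first Lcn2 probe set were Wfdc21 at 0.67, S100a9 at 0.69 and Arg1, arginase 1, at 0.86. Saa3, Il1b, Cxcl2, Lcn2, Wfdc21 and Arg1 all had both rosiglitazone arrays under the floor, which makes their profiles alike on those arrays by construction.

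Serpina3n had other neighbours, the nearest being the transcription factor Zbtb16 at 0.17, the matrix proteoglycan Ogn at 0.38 and Csrp1, a LIM-domain protein of smooth muscle, at 0.39. On these, as on Serpina3n, rosiglitazone replicate 1 was the brighter of its group and vehicle replicate 3 the brighter of its own. Zbtb16 had 292 and 129 with rosiglitazone, against 1111 and 833 with vehicle. Nearest to 103465_f_at were Hand1 at 0.14, Fpr2 at 0.19 and F10, coagulation factor X, at 0.21. Fpr2 is a formyl peptide receptor that also binds serum amyloid A. For Hp the nearest was Ndufa1 at 0.058, then Cdh1 at 0.069 and Nfib at 0.084. For Orm1 they were Bysl at 0.069, Aldh3a2 at 0.077 and Emb at 0.077, and Aldh3a2, Htra1 and Bysl, at 0.044 to 0.063, were also those of the second Lcn2 probe set. Psmb3, Gtpbp1 and Kit, at 0.058 to 0.071, were those of Lbp. These distances over 4 arrays are given as a description.

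Of 35 other acute-phase genes listed, 26 were on the array under a single symbol and 14 passed the filter. Of these 14, 1 fell and 0 rose in limma, 13 did not pass, and the median log2 difference was -0.75, against -0.02 over all tested probe sets. With no filter on dim probe sets the list median was -0.34, against 0 over all probe sets. Cd14, the endotoxin co-receptor that receives lipopolysaccharide from Lbp, fell 7.62-fold (limma, adjusted p = 1.45e-04). It had 3496 and 3642 with rosiglitazone, against 27529 and 26830 with vehicle. Metallothionein Mt2, a metal-binding protein, had 15994 and 19492 with rosiglitazone, against 31447 and 33042 with vehicle (log2 difference -0.87, adjusted p = 0.116). Saa2 is counted here too, and without it the median was -0.63. Liver products such as Crp, Hamp, Fga, Fgb and Fgg, named after their values were seen, were under the filter. Others of the list, named likewise, passed the filter. Itih4, Cp and Serpina1b were lower without overlap, at -1.92, -0.87 and -1.16, and Apcs overlapped between the groups at -0.25. Their adjusted p in limma ran from 0.384 for Itih4 to 0.938 for Apcs. Itih4, Serpina1b and Saa2 had rosiglitazone means under the filter, so they passed it through their vehicle arrays.

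Among the cytokines and receptors that drive the response, 18 of 20 listed were on the array and 11 passed the filter. Of the 11, 2 fell, 0 rose and 9 did not pass. The list median was -0.80, against -0.30 without rosiglitazone replicate 1 and -0.28 with no filter on dim probe sets. Il1b fell at least 112-fold, with 111 and 109 with rosiglitazone, against 18270 and 15031 with vehicle (limma, adjusted p = 1.33e-05). Il1b passed the filter through its vehicle arrays alone, and with no filter it did not pass in limma (adjusted p = 0.0928). Il1rn, the antagonist of the interleukin 1 receptor, fell 12.6-fold, with 828 and 224 against 3888 and 7520 (adjusted p = 0.0455). Il1r2, the decoy receptor, had a log2 difference of -2.07 (adjusted p = 0.0744) on the probe set with the higher mean log2 intensity and fell on the other (-3.01, adjusted p = 0.0210). Tnfrsf1b, a receptor of tumour necrosis factor, had -1.45 (adjusted p = 0.105). Il6, named after its values were seen, was under the filter, at 36 and 35 with rosiglitazone, against 492 and 93 with vehicle. The median of this list was -0.47 when the probe sets of a gene were averaged.

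Of 12 tested transcription factors and feedback genes, 0 passed in either direction in limma, against 0.322% lower and 0.0421% higher over all tested, and the median was -0.21. Those with the smallest p were Nfkbia, the inhibitor of NF-κB (log2 difference -1.09, adjusted p = 0.0780), Nfkbiz, a nuclear cofactor that NF-κB induces (-2.37, adjusted p = 0.249), Socs3, the feedback inhibitor of interleukin 6 signalling (-1.51, adjusted p = 0.347), and Cebpa (0.52, adjusted p = 0.384). Further probe sets of Nfkbiz and Socs3, at -0.71 and -0.11, overlapped between the groups and were under the filter. A further one of Nfkbia had -0.86 (adjusted p = 0.284 in limma). The Socs3 value of -1.51 came from a probe set with the suffix f. An unadjusted p under 0.05 was seen in 5 of the 12, and in 776 of all 7134 tested probe sets. Cebpb and Stat3, which were picked out with their values known, overlapped between the groups at -0.03 and 0.18. Of the 12, 6 were lower without overlap, where 21.8% of all tested probe sets were, and 2 were higher without overlap. Among the 6 were Cebpd at -0.66, Nfkb2 at -0.73 and Rela at -0.21, with adjusted p of 0.448, 0.606 and 0.795 in limma.

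Of 11 tested receptors and partners of the acute-phase proteins, Cd14 fell, 0 rose and 10 did not pass, with a median of -0.47. Mmp9, a gelatinase that in humans forms a complex with lipocalin 2, had 101 and 187 with rosiglitazone, against 1260 and 1062 with vehicle (log2 difference -2.80, adjusted p = 0.173). Fpr2 had 196 and 614 against 1346 and 1432 (adjusted p = 0.284). The beta-globin gene Hbb-b2, whose product haptoglobin binds as part of haemoglobin, had -0.78 (adjusted p = 0.335). The alpha-globin gene Hba-a1, for the other chain of haemoglobin, overlapped between the groups at 0.018 and was picked out with its values known. Elane, neutrophil elastase, overlapped between the groups at -0.47 and was picked out with its values known.

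**Figure D3:**
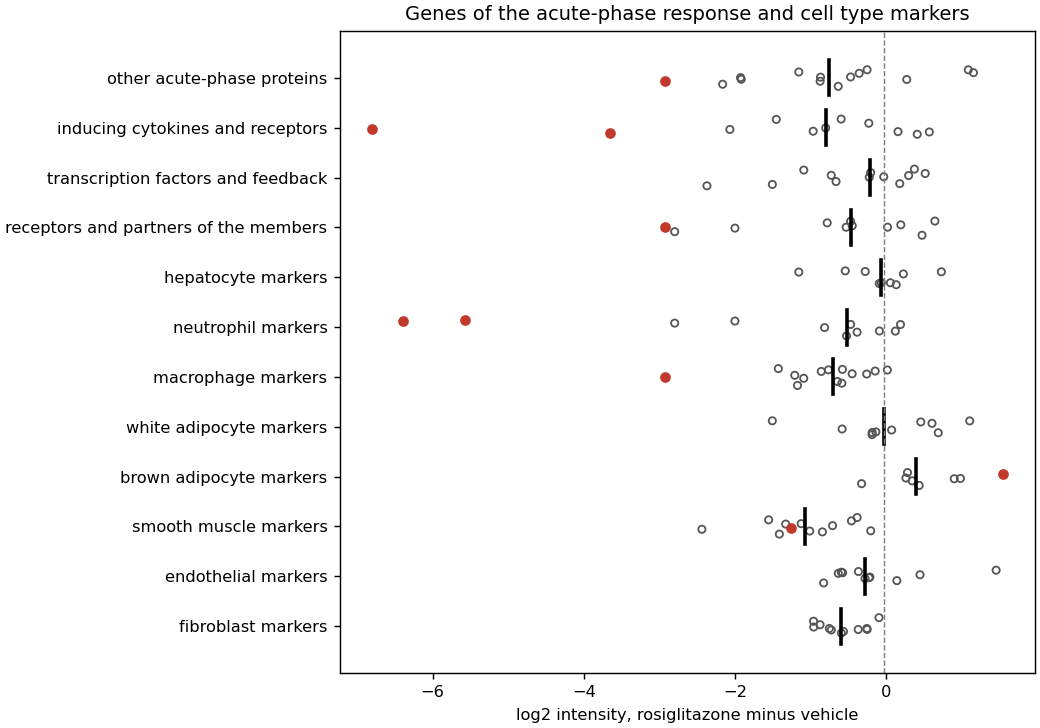
Log2 intensity of rosiglitazone minus vehicle for each tested gene of 4 lists of the acute-phase response and 8 lists of cell type markers, with 1 probe set per gene, the brightest, with filled red points for genes past an adjusted p of 0.05, open points for the rest, black bars for list medians and a dashed line at the median of all tested probe sets. Il1b, S100a8 and S100a9 stand farthest to the left, and the hepatocyte markers centre near the dashed line at a median of -0.06.

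The source tissue was checked against marker lists. Of 18 hepatocyte markers on the array 9 were tested, and 0 passed in either direction in limma. Of the 9, 1 had an unadjusted p under 0.05, against 776 of all 7134 tested probe sets. The hepatocyte markers had a median of -0.06. Their summed intensity was 59692 and 44042 with rosiglitazone, against 55912 and 48336 with vehicle, most of it from Cyp2e1, which adipose tissue also expresses. Those with the smallest p were Rbp4 at -0.54, Serpina1b at -1.16, Cps1 at 0.73 and Ttr at -0.28, with adjusted p from 0.457 for Rbp4 to 0.911 for Ttr. Apoh and Ambp, 2 liver-secreted proteins, were under the floor on all 4 arrays, and albumin, Alb, had 481 and 911 against 588 and 846. Smooth muscle actin, Acta2, had 28866 and 33031 with rosiglitazone, against 56544 and 80133 with vehicle, and Ucp1, the uncoupling protein of brown fat, had 97796 and 73418 against 54981 and 33472. The RNA thus held both muscle and fat transcripts.

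Markers of leukocytes, cells that can make several of these proteins, had lower summed intensities on the rosiglitazone arrays, while few of them passed the test singly. The 18 neutrophil markers on the array summed to 13279 and 10863 with rosiglitazone, against 136083 and 201397 with vehicle. S100a8 and S100a9 made up most of the vehicle sum, and the other 16 summed to 11588 and 7781 against 14655 and 13946. Of 11 tested, S100a8 and S100a9 fell, by 84.0-fold and 47.4-fold (limma, adjusted p = 9.84e-05 and 9.50e-06), 0 rose and 9 did not pass, with a median of -0.52. Mmp9 and Fpr2, given above, were the next by p. Granule genes, named after their values were seen, did not all go one way. Ltf and Mpo overlapped between the groups, with 742 and 615 against 545 and 708, and 326 and 610 against 499 and 825. Elane and Ctsg overlapped too. Camp was lower without overlap, with 1072 and 1191 against 2059 and 1919 (log2 difference -0.81, adjusted p = 0.416 in limma). Ngp and Prtn3 were also lower without overlap, but were under the filter. The 16 macrophage markers on the array summed to 25213 and 25665 with rosiglitazone, against 65862 and 70400 with vehicle. Cd14 alone gave 3496 and 3642 of these sums with rosiglitazone, against 27529 and 26830 with vehicle. Of 14 tested, Cd14 fell, 13 did not pass and 13 had a difference below 0, with a median of -0.70. The next by p were the lysosomal protein Laptm5 at -1.17, the signalling adaptor Tyrobp at -1.21 and the protease Ctss at -1.09, with adjusted p of 0.104, 0.123 and 0.169. The part of leukocyte number in the differences of Saa3 and Lcn2 was not tested.

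Lists of the vessel wall and of fat went in different directions. Smooth muscle markers had 12 of 12 tested genes below 0, with Tagln, transgelin, past the threshold (log2 difference -1.26, adjusted p = 0.0455 in limma) and a median of -1.07. Their sum was 70395 and 75470 with rosiglitazone, against 141074 and 164930 with vehicle. Cnn1 had -1.33 (adjusted p = 0.0674), Myh11 had -1.55 (adjusted p = 0.0687) and Acta2 had -1.12 (adjusted p = 0.0799). Brown adipocyte markers had 7 of 8 above 0 and a median of 0.39, with Fabp3, a fatty acid binding protein, higher by 2.92-fold (adjusted p = 0.0240 in limma). Ppara had 0.90, Ucp1 0.98 and Cidea 0.44, with adjusted p of 0.154, 0.201 and 0.553. White adipocyte markers, cells known to make Saa3, Lcn2, Hp and Orm1, had 5 of 10 below 0, 0 past the threshold in limma, 3 with an unadjusted p under 0.05 and a median of -0.03. Their sum was 509276 and 539028 with rosiglitazone, against 401793 and 425042 with vehicle, with Adipoq, adiponectin, giving 165554 and 195068 of it with rosiglitazone, against 125080 and 136822 with vehicle. The hormone-sensitive lipase Lipe had 1.10, the lipid droplet protein Cidec 0.69, the triglyceride lipase Pnpla2 0.61 and the adipokine Retn -1.51, with adjusted p from 0.0799 for Lipe to 0.506 for Retn. Retn had 2422 and 350 with rosiglitazone, against 2681 and 2552 with vehicle, so its difference rests on 1 array. Leaving out rosiglitazone replicate 2 gave -0.11, and leaving out replicate 1 gave -2.90, which passed the test (limma, adjusted p = 0.0112). Endothelial and fibroblast markers had medians of -0.28 and -0.59 and 0 genes past the threshold in limma, with 2 and 4 at an unadjusted p under 0.05. Over all 7134 tested probe sets, 776 had such a p. Among endothelial genes Cldn5 had 1.45, Tie1 -0.83, Vwf -0.63 and Emcn -0.59, with adjusted p from 0.0780 to 0.467. Among fibroblast genes Col1a2 had -0.96, Col3a1 -0.75, Postn -0.96 and Dcn -0.59, with adjusted p from 0.116 to 0.380. On further probe sets Tie1 had 0.45 and Col1a2 0.51, of the opposite sign. The part of these shifts in the members' values was not tested.

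**Figure D4:**
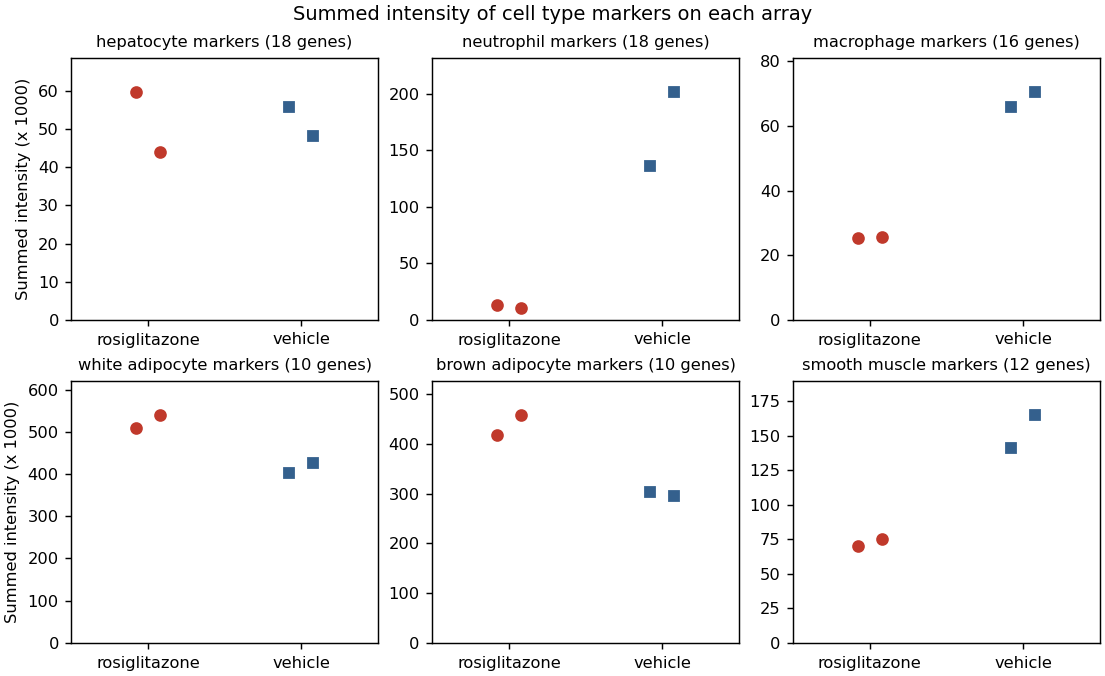
Summed intensity, on linear axes from 0, of 6 lists of cell type markers on each array, with rosiglitazone arrays as red circles and vehicle arrays as blue squares. Neutrophil, macrophage and smooth muscle sums are lower on both rosiglitazone arrays, white and brown adipocyte sums are higher, and hepatocyte sums overlap.

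The number of calls depended on single arrays. Without vehicle replicate 3 or without vehicle replicate 4, 1 probe set was called lower in the whole table, that of S100a9, against 23 with all arrays. Without rosiglitazone replicate 1 there were 41, and without rosiglitazone replicate 2 there were 58. In each of these fits a group has 1 array, which is assumed to vary like the pair of the other group. Without either vehicle array, the calls of Cd14, Il1b, Il1rn, S100a8, Tagln and Fabp3 were lost. Nfkbia, Ctss, Lipe, Cnn1 and Myh11 passed the test without rosiglitazone replicate 2. With each of the 4 arrays left out in turn, the log2 difference of Saa3 was between -7.10 and -6.97. That of the first Lcn2 probe set was between -5.09 and -4.75. For both probe sets the rosiglitazone arrays were set to the floor, so leaving out either of these arrays could not change the difference. The log2 difference of Serpina3n ran from -2.78 to -1.90 and that of 103465_f_at from -2.76 to -1.09. That of Hp was nearest 0 at -0.24. Lbp changed sign, at 0.032 without rosiglitazone replicate 1, as did 100333_at, at -0.20 without vehicle replicate 3.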

How the data were processed

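The deposited table holds the authors' hybridisation intensity for each probe set on each array, in whole numbers and without a log transform, from pooled aortic RNA per the labels. The software, background correction and detection calls are not given in the sources used here, so a probe set's height above background is unknown. The values show a common scale, with a mean of 1501 on each array after 2% was trimmed at each end. Arrays have no sequencing depth, and their number limits the precision.

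66 control probe sets were left out of 12488. Names came from GEO's platform annotation, with symbols checked by gene identifier in a RefSeq table of GRCm38.p6, and 0 changed. Of the rest, 10833 had 1 symbol, 396 several and 1193 none listed. Intensities under 148, the 20th percentile, were set to 148 before log2. Probe sets were kept if their mean log2 intensity over all 4 arrays, after the floor, was at or above the log2 of 414, the 40th percentile. A probe set dim in 1 group could thus pass through the other. Among others, Orm2, Nfkbiz, Socs3, Mmp9 and Fpr2 had rosiglitazone means under the filter and passed through their vehicle arrays. Groups were compared with limma 3.58.1 in R 4.3.3 (lmFit, eBayes with an intensity trend), with two-sided p adjusted by Benjamini-Hochberg over all 7134 and a threshold of 0.05. With both arrays of a group under the floor their SD is 0, which can make p too small. For lists, a gene was represented by its brightest probe set, that with the highest mean log2 intensity.

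The members and lists were chosen with earlier results of these data known. Besides the members, each list's genes past the threshold were named, filled to 4 by the smallest p, as were the 3 nearest profiles of each member. The alternatives changed the floor, filter, scaling, variance model and arrays used.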

Additional observations from a re-analysis of the deposited data

How the results depend on the processing

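No paired analysis was possible because the groups share no replicate number. Over all probe sets limma called 23 lower and 3 higher. With no filter on dim probe sets it called 0 and 0, with 1202 of 12422 at an unadjusted p under 0.05, and without the intensity trend 7 and 0. It called 5 higher with the floor at the 40th percentile and 7 higher with the filter at the 60th. With 1 array left out the counts ran from 1 to 58 lower and from 0 to 20 higher. Saa3 and the first Lcn2 probe set, which are bounds, moved with the floor by construction: -7.70 and -5.41 at the 10th percentile, -5.55 and -3.44 at the 40th, and -7.13 for Saa3 with log2(intensity + 50). With arrays centred on their medians Saa3 was at -6.95. With 1 array left out the other members ran from -0.92 to -0.46 for the second Lcn2 probe set, -0.94 to -0.42 for Orm1, -0.60 to 0.032 for Lbp and -0.20 to 1.17 for 100333_at. The sign of the other 7 probe sets was the same under each of the 12 alternatives. Among other genes of the response limma called 3 lower, 0 with no filter, 1 without the trend and 0 to 4 with 1 array left out. Among cell type markers it called 4 lower and 1 higher, 0 and 0 with no filter, 1 and 0 without the trend, and 1 to 8 lower and 0 to 2 higher with 1 array left out. Ttr, a hepatocyte marker at -0.28, ran from -0.69 to 0.13 with 1 array left out, above 0 without vehicle replicate 3 and, at 0.0045, without rosiglitazone replicate 1. With 1 array left out, list medians ran from -0.36 to -0.078 for transcription factors, -0.82 to -0.18 for receptors and partners, -0.97 to -0.73 for neutrophil, -0.46 to -0.14 for endothelial, -0.13 to 0.094 for hepatocyte and -0.078 to 0.16 for white adipocyte markers. Likewise Cps1 ran from 0.055 to 1.41, Postn from -1.47 to -0.46 and Vwf from -0.97 to -0.30. Causes other than the floor were not tested. 2 list alternatives, without Saa2 and without S100a8 and S100a9, were chosen after seeing the data.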
